A study of Rattus norvegicus with 59 samples.

Results

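The livers described here were taken on day 3 from rats that had received cadmium (Cd) and from the controls of the same day. There were 5 Cd livers and 5 control livers, which is 10 of the 59 arrays of the series, and they were chosen by their labels alone. Male Sprague-Dawley rats received a single intraperitoneal injection of CdCl2 at 1.25 mg/kg in sterile saline, and the controls received the saline vehicle. The age of the rats is not given in the sources used here. Control livers of days 1 and 7 were not pooled into the main comparison. Total RNA of whole liver was hybridised to 1 array per liver, and the labels number the livers of a group as biological replicates. Each value below is a log2 signal after robust multi-array averaging (RMA), so a difference of 1 is a doubling, and precision is limited by how many arrays there were. For comparison, 3 other exposed groups were read against their own same-day controls: Cd on day 1 (4 exposed and 5 control livers), Cd on day 7 (5 and 5) and Na2Cr2O7 (Cr) on day 3 (5 and 5). For Cr the labels state 20 mg/kg, and the paper's methods are not uniform on the dose.

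Cd binds to sulfhydryl groups and is stored in the liver mostly bound to metallothioneins, small cysteine-rich proteins whose genes are switched on by metals. The liver holds a resident macrophage population, the Kupffer cells, and injured liver is entered by neutrophils and blood monocytes. Hepatocytes answer inflammatory cytokines with acute phase proteins and interferons with antiviral genes, and they read growth hormone through STAT5, which induces its own inhibitor Cish.

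Mt2A, a metallothionein, was higher in Cd livers 1 to 4 but not in Cd liver 5, and Cish was higher in all 5. Their promoters are shown as an example of each, each from 250 bases before to 50 bases after the gene's start. Capitals mark the metal response core (TGCACNC or TGCGCNC on either strand) in Mt2A, at chr19:10838659-10838958 on the minus strand, and the STAT motif TTCNNNGAA, which reads alike on both strands, in Cish, at chr8:116850719-116851018 on the plus strand (RefSeq, GRCr8).
Mt2A: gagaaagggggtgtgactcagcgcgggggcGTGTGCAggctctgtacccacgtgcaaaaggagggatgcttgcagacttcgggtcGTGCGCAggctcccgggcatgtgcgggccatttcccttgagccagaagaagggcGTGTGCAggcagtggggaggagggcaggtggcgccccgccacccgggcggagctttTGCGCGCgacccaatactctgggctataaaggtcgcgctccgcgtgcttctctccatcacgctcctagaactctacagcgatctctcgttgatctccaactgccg
Cish: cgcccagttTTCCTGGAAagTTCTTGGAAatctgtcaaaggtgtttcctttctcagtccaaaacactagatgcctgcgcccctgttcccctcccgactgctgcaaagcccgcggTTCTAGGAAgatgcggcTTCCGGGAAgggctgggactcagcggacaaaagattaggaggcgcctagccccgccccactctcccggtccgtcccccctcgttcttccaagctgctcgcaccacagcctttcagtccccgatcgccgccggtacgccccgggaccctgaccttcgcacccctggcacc
The Mt2A window held 4 matches of the metal response core, and none overlapped another. At least 1 match stood in 24.2% of the 33469 rat promoter windows, and 0.439% held 4 or more. The Cish window also held 4 separate matches, of the STAT motif. A match of that motif stood in 8.87% of all windows, and 0.00598% (2 windows, Cish included) held 4 or more. Matches describe the letters only, and no binding was measured.

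The tissue label fits the signals, since Alb, which encodes albumin, had a control mean of 14.87 against array medians of 5.38 to 5.43. Cd liver 5 stood apart from Cd livers 1 to 4. On the first principal component, which held 31.3% of the variance over 15521 probe sets, Cd livers 1 to 4 lay between 8.11 and 25.4, and Cd liver 5 lay at -6.47, within the control span of -16.2 to -5.68. Whether this liver came from a rat that received the dose on its label was not tested. The paper excluded a Cd replicate of day 1 that grouped with the controls and was found without Cd accumulation. The Cd content of Cd liver 5 was not among the values used here. A probe set was called where the adjusted p of limma (Benjamini-Hochberg over all 15521 probe sets tested) was 0.05 or less. With all 10 arrays 136 probe sets were called, or 0.876%, of which 110 were higher after Cd (0.709%) and 26 lower (0.168%). With each array centred on its median, 80 were higher and 34 lower. The groups did not overlap at 133 of the 136, whereas over all probe sets tested 2.49% lay wholly above and 0.986% wholly below the controls. A change of at least 1.8-fold was seen at 39 of them (0.251%), and at 139 of the 2208 probe sets (14.2%) with an unadjusted p of 0.05 or less (0.896%). Without Cd liver 5 the count was 583 (3.76%), with 490 higher (3.16%) and 93 lower (0.599%), and all 136 were among them. Cd liver 5 was singled out after its values were seen, although leaving out each liver in turn had been planned.

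The 583 probe sets were called in a fit without Cd liver 5, but the filter on mean signal included this liver. The same 5 controls served for the calls and for the position of Cd liver 5. Control values that favoured a call could also place Cd liver 5 beyond the controls, so its position is not a separate reading. The matching shares over all probe sets tested are not given here, so the counts below are descriptive only. Cd liver 5 lay beyond all 5 controls in the same direction at 271 of the 583, inside the control range at 285, and beyond the controls in the opposite direction at 27. Values are given below with and without this liver. Leaving out a liver that lay near the controls narrows the spread at such genes. The adjusted p values without it are therefore descriptive and not tests set in advance. Counts of called list members stand beside 0.876% of all probe sets called with all livers and 3.76% without Cd liver 5.

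**Figure D1:**
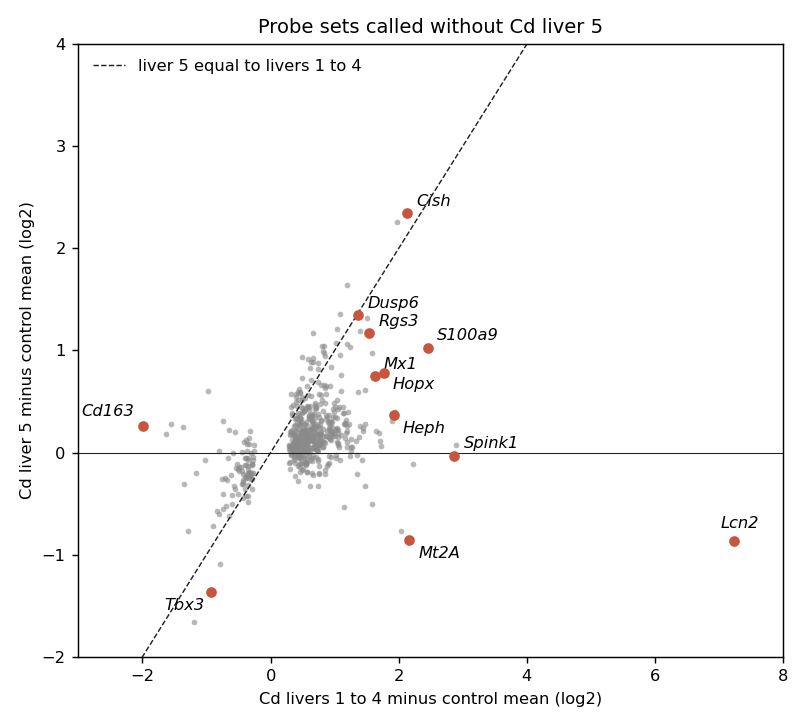
Position of Cd liver 5 at the 583 probe sets called without it. The x axis is the mean of Cd livers 1 to 4 minus the control mean and the y axis Cd liver 5 minus the control mean, both in log2 units. Each point is a probe set, and named genes are in red. Cish, Dusp6, Rgs3 and Tbx3 lie near the dashed line of equal change, whereas Lcn2, Mt2A, Spink1 and Cd163 lie at or beyond the horizontal line at 0.

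Cish, Dusp6 and Rgs3, which each dampen a signalling pathway, rose after Cd. None of the 5 Cd livers overlapped the same-day controls at the brightest probe set of each. Cish, the STAT5-induced inhibitor of growth hormone signalling, measured 5.51, 5.24, 4.34, 5.07 and 5.34 in the controls and 7.35, 7.27, 7.34, 6.97 and 7.45 in the Cd livers. No Cd liver overlapped the controls, and Cd liver 5 was the highest. The difference was 2.18 ± 0.19 (SE, n = 5 and 5, 4.52-fold, limma, adjusted p = 0.000471), and 2.13 without Cd liver 5. Dusp6, a phosphatase that switches off ERK, measured 9.32, 9.60, 9.10, 9.16 and 9.09 in the controls and 10.55, 10.78, 10.59, 10.58 and 10.60 after Cd, a rise of 1.36 ± 0.10 (adjusted p = 0.000289). Rgs3, which shortens G protein signals, measured 8.21 to 8.58 in the controls and 9.60 to 10.12 after Cd and rose by 1.46 ± 0.13 (adjusted p = 0.000471). A further probe set of Rgs3 had a difference of -0.11 and was not called, so its probe sets disagreed. For Dusp6 a second probe set gave 1.16 and was called, and the dimmest gave 1.00 and was not called (limma, adjusted p = 0.056). At the dimmest, Cd liver 5 (7.62) lay below the highest control (7.67).

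Among transcription factors, Hhex, a homeobox factor of liver development, measured 10.16, 10.10, 10.17, 9.77 and 10.18 in the controls and 11.07, 11.15, 11.16, 11.06 and 11.28 after Cd, and rose by 1.07 ± 0.09 (adjusted p = 0.000449). Foxa2, which opens chromatin at liver genes, rose by 0.85 ± 0.10 (8.73 to 9.10 against 9.48 to 9.93, adjusted p = 0.00304), and Myc, a driver of growth and division, by 1.46 ± 0.22 (6.01 to 6.95 against 7.53 to 8.56, adjusted p = 0.0152). Net1, an exchange factor for RhoA, rose by 0.87 ± 0.11 (adjusted p = 0.00364). In each of these the lowest Cd liver stood above the highest control. Onecut1, another liver factor, had a difference of 1.79 ± 0.56 without passing the test (adjusted p = 0.153), with controls spread from 6.46 to 9.76. Bcl6, a repressor that growth hormone lowers in liver, measured 9.42 ± 1.17 (mean and SD) in the controls, with 10.74 at most, and 8.42, 8.29, 8.12, 7.59 and 8.11 after Cd, and its difference of -1.31 was not called (adjusted p = 0.204). Socs2, which like Cish is induced by STAT5, differed by 0.77 (adjusted p = 0.429). Onecut1, Net1, Bcl6 and Socs2 were picked after their values had been seen. In the list of 17 tested genes of the growth hormone and IGF axis, Cish alone was called with all livers, Stat3 was added without Cd liver 5 (0.41, adjusted p = 0.00544), and the median difference was -0.04 against 0.006 over the 9407 genes tested.

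At several of these genes the Cd livers lay close to Cd controls of other days. The 10 control livers of days 1 and 7 ranged over 4.25 to 7.84 for Cish, with a mean of 7.50 on day 1 and 5.68 on day 7 against 5.10 on day 3, so the Cd livers of day 3 lay inside that range. For Hhex those 10 controls ranged over 10.48 to 11.92, above every day 3 control. For Tbx3 they ranged over 5.15 to 6.22, below every day 3 control. Against all 15 Cd controls the difference of Cish was 1.18 (limma, adjusted p = 0.325), that of Hhex 0.40 (adjusted p = 0.553), that of Foxa2 0.41 (adjusted p = 0.504), that of Rgs3 1.02 (adjusted p = 0.1) and that of Myc 0.88 (adjusted p = 0.116). Dusp6 stayed called at its brightest probe set, at 0.96 (adjusted p = 0.0298), but not at its dimmest (0.72, adjusted p = 0.092). Of the 136 called probe sets, 54 were also called against the 15 pooled controls, and at 80 the mean of the Cd livers lay inside the range of the 10 controls of days 1 and 7. Cd and the day of the controls were not separated further, and the part of the day 3 controls in these calls was not tested.

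**Figure D2:**
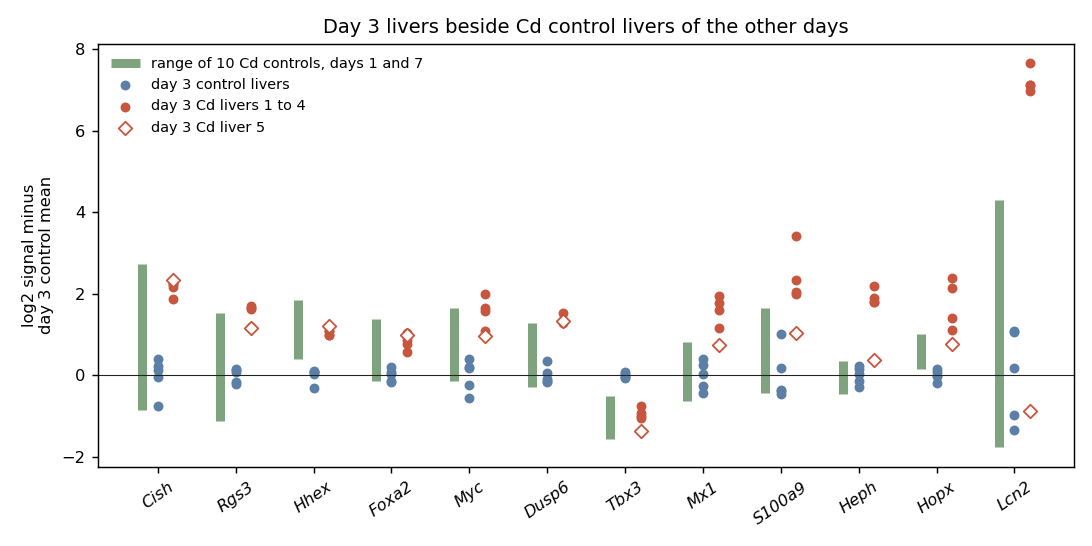
Day 3 livers beside Cd control livers of the other days for 12 genes. The y axis is the log2 signal minus the mean of the day 3 controls. Blue points are the 5 day 3 controls, red points Cd livers 1 to 4, open diamonds Cd liver 5, and green bars the range of the 10 Cd controls of days 1 and 7. The red points of Cish, Hhex and Foxa2 lie within the green bars, whereas those of Mx1, Heph, Hopx and Lcn2 lie above them.

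The 26 lower probe sets included regulators of cell contact, stress and iron sensing. Tbx3, a T-box repressor, measured 6.70, 6.80, 6.76, 6.68 and 6.64 in the controls and 5.72, 5.80, 5.96, 5.66 and 5.36 after Cd, and fell by 1.02 ± 0.10 on the log2 scale (adjusted p = 0.00116), with Cd liver 5 the lowest. Ddit4, a stress-induced inhibitor of mTORC1, was lower, with -0.76 ± 0.09 (7.33 to 7.71 against 6.55 to 6.93, adjusted p = 0.00306). The glucocorticoid-induced G protein Rasd1 was lower as well, with -0.70 ± 0.08 (7.71 to 7.98 against 6.95 to 7.25, adjusted p = 0.00168). A ligand and its receptor fell together: Efna1, the membrane-bound ligand, with a difference of -0.66 ± 0.08 (adjusted p = 0.00304) and Epha2, a receptor tyrosine kinase that binds it, with -0.64 ± 0.11 (adjusted p = 0.0281). A second probe set of Efna1 gave -0.79 and was called too.

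Smaller falls were measured for Lrig3 (-0.56 ± 0.08), the polarity gene Pard6b (-0.51 ± 0.08), Hjv, the hemojuvelin co-receptor that sets hepcidin (-0.44 ± 0.08), the lipid sensor Ppard (-0.40 ± 0.07), the lipid kinase Dgkd (-0.40 ± 0.07) and Herpud1, which serves the degradation of misfolded proteins at the endoplasmic reticulum (-0.39 ± 0.07), with adjusted p between 0.0161 and 0.0403. A second probe set of Dgkd had a difference of -0.01 and was not called. Herpud1 was the single call among 23 genes of ER folding, of which 22 had differences below 0, with a median of -0.17. Against the 15 pooled controls Ppard alone of these stayed called (-0.37, adjusted p = 0.00582), whereas Tbx3 (-0.42, adjusted p = 0.489), Ddit4, Rasd1, Efna1, Epha2, Lrig3, Pard6b, Hjv, Dgkd and Herpud1 did not.

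**Figure D3:**
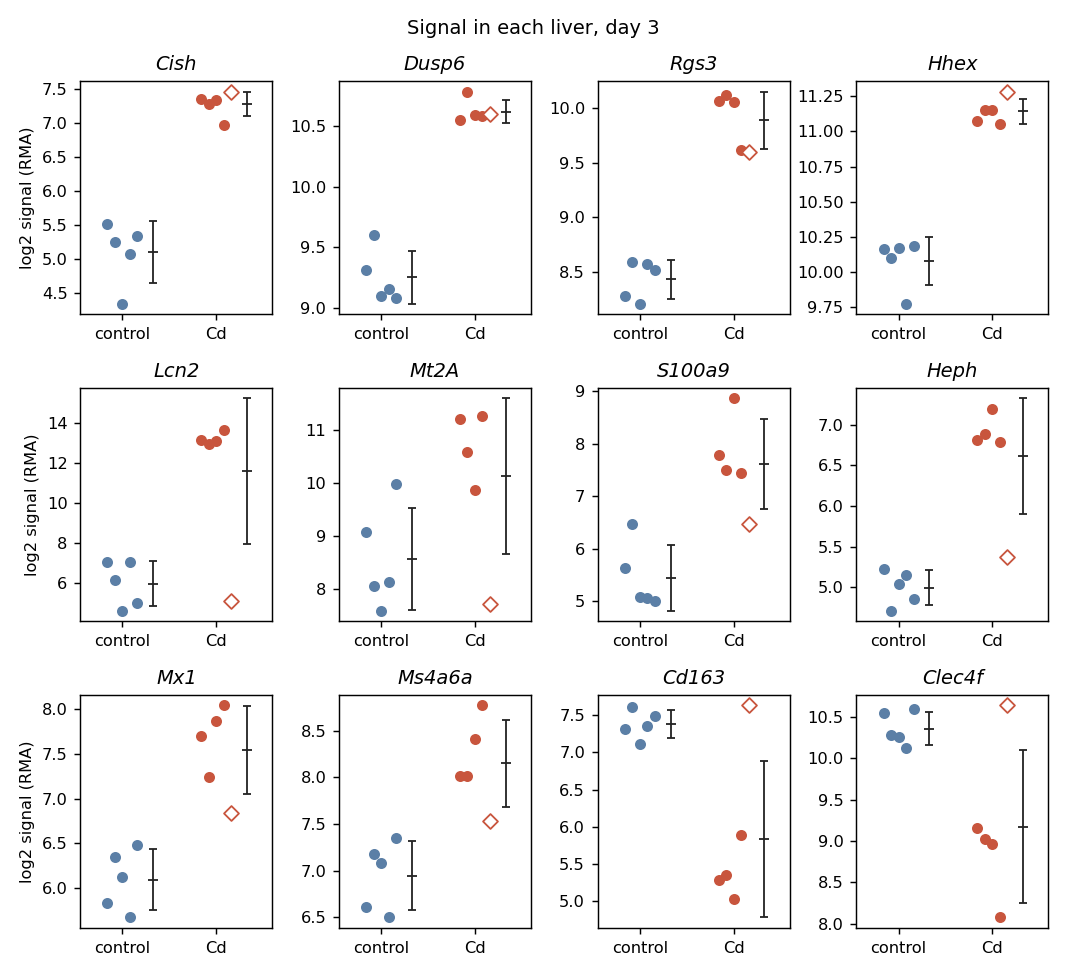
Log2 signal of 12 genes in each of the 5 control livers (blue) and 5 Cd livers (red; the open diamond is Cd liver 5) on day 3, with the mean and SD of each group in black and a separate y axis per gene. In the top row all 5 Cd livers lie above the controls, and in Lcn2, Mt2A, Cd163 and Clec4f Cd liver 5 lies with or beyond the controls, away from the other 4.

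Mt2A measured 9.09, 8.06, 7.60, 8.13 and 9.98 in the controls and 11.22, 10.59, 9.87 and 11.27 in Cd livers 1 to 4, but 7.72 in Cd liver 5, which was below 4 of the 5 controls. With all livers the difference was 1.56 ± 0.66 (adjusted p = 0.3), and without Cd liver 5 it was 2.17 ± 0.46 (4.49-fold, adjusted p = 0.031). A bright probe set that the annotation assigns to Mt1f, Mt1 and Ttr together gave a similar pattern. It measured 11.20, 9.84, 8.57, 9.59 and 12.04 in the controls and 12.75, 12.21, 11.71 and 12.98 in Cd livers 1 to 4. Cd liver 5, at 8.45, lay below all controls. This probe set was not called with (1.37, adjusted p = 0.539) or without that liver (2.16, adjusted p = 0.0893). The probe set of Mt1 alone was dim, at 5.08 to 5.73 in the controls, and its difference of 0.36 was not called (adjusted p = 0.582). Mt3 was too dim to be tested, and Mt4 was not called (-0.22, adjusted p = 0.3).

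Slc39a4, a zinc importer, was the other member of the 12 tested metallothioneins and zinc transporters to be called once Cd liver 5 was left out. It measured 8.50 to 8.98 in the controls, 8.09, 8.38, 7.79 and 7.79 in Cd livers 1 to 4 and 9.06 in Cd liver 5, a difference of -0.75 ± 0.14 without that liver (adjusted p = 0.0166) and -0.54 with it (adjusted p = 0.277). With all 5 Cd livers no member of the list was called, and the median was 0.05. The importers Slc39a1 and Slc39a8, the 2 brightest members of the list, differed by 0.11 and -0.04.

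Of 21 tested targets of NRF2, the transcription factor of the antioxidant response, 0 were called with all livers, and Nqo1, a quinone reductase, was the single call without Cd liver 5, against 0.876% and 3.76% of all probe sets. Nqo1 measured 7.16 to 7.64 in the controls, 8.25, 8.57, 9.73 and 8.68 in Cd livers 1 to 4 and 7.58 in Cd liver 5 (1.13 with adjusted p = 0.105, and 1.38 with adjusted p = 0.0163 without that liver). Hmox1, which degrades heme, was at 8.24, 8.60, 9.36, 8.16 and 9.52 in the controls and 9.65, 9.41, 9.77, 9.57 and 8.58 after Cd, and did not pass the test (0.62 ± 0.30, adjusted p = 0.382). Of 16 superoxide and peroxide scavenging genes 0 were called, with or without Cd liver 5, and their median was 0.01.

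The largest difference of any gene named here was that of Lcn2, a siderophore-binding protein secreted by injured liver. It measured 7.04, 6.15, 4.64, 7.06 and 5.01 in the controls and 13.12, 12.95, 13.11 and 13.64 in Cd livers 1 to 4, while Cd liver 5, at 5.12, lay inside the control range. The difference over all livers was 5.61 ± 1.42 and was not called (adjusted p = 0.0887). Leaving out Cd liver 5, which was singled out after its values were seen, gave a difference of 7.23 ± 0.48, or 150-fold (limma, adjusted p = 0.000155, descriptive only). One Cd control of another day reached 10.27.

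S100a9, an alarmin of neutrophils and monocytes, was called with all livers. It measured 5.63, 6.47, 5.09, 5.06 and 5.00 in the controls and 7.78, 7.50, 8.86, 7.45 and 6.47 after Cd, and Cd liver 5 came within 0.01 of the highest control. The rise was 2.17 ± 0.40 (4.49-fold, adjusted p = 0.0354). It was the only gene bright enough to be tested of 16 neutrophil granule and alarmin genes, of which 9 are on the array. Spink1, a trypsin inhibitor of the acute phase, measured 6.78 to 9.08 in the controls, 9.70 to 11.09 in Cd livers 1 to 4 and 7.72 in Cd liver 5, and was called only without that liver (2.87 ± 0.43, adjusted p = 0.00599). The probe sets of Spink1 disagreed, since 1 of its 3 gave 0.19 without that liver and was not called (adjusted p = 0.57).

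Of 19 acute phase proteins tested, 17 had differences above 0, and Orm1, the plasma glycoprotein orosomucoid, was called. Orm1 measured 12.98, 12.67, 12.48, 12.61 and 12.85 in the controls and 13.78, 13.77, 13.94, 14.09 and 12.91 after Cd, a rise of 0.98 ± 0.19 (adjusted p = 0.0451) in which Cd liver 5 lay among the controls. The list had 5 calls, all higher, without Cd liver 5: Orm1, Lcn2, the heme scavenger Hpx (0.41), Lbp, which presents bacterial lipopolysaccharide (0.96), and Itih4. The list median was 0.17 with and 0.21 without that liver. Cxcl1, a neutrophil attractant, was the single call of 13 chemokines without Cd liver 5 (1.58 ± 0.32, adjusted p = 0.0261), at 8.74, 7.93, 9.06 and 7.42 in Cd livers 1 to 4 and 6.20 in Cd liver 5 against 6.08 to 7.17 in the controls. Of 22 complement genes 1 was called (C1qb), and without Cd liver 5 there were 8, among them C5 (0.44, adjusted p = 0.043), C9, C1s and the inhibitors C4bpa and Serping1. For these lists the shares of all probe sets called were 0.876% with all livers and 3.76% without Cd liver 5.

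Without Cd liver 5, macrophage genes were called in both directions, lower for Cd163, Clec4f and Cd5l and higher for other members. With all livers no Kupffer cell marker was called lower. Whole liver was measured, so fewer cells of a type and less RNA per cell cannot be told apart. The scavenger receptor Cd163 measured 7.32, 7.61, 7.11, 7.36 and 7.49 in the controls, 5.28, 5.35, 5.03 and 5.89 in Cd livers 1 to 4 and 7.64 in Cd liver 5, above all controls. It was not called with all livers (-1.54, adjusted p = 0.0951) and fell without Cd liver 5 (-1.99 ± 0.16, adjusted p = 0.000318). The lectin Clec4f, found on Kupffer cells, measured 10.12 to 10.60 in the controls, 9.16, 9.03, 8.96 and 8.08 in Cd livers 1 to 4 and 10.64 in Cd liver 5 (-1.55 ± 0.20 without it, adjusted p = 0.00327). Cd5l, a protein secreted by tissue macrophages, behaved likewise (9.68 to 10.13, 7.45 to 9.19 and 10.14), with -1.37 ± 0.30 without that liver (adjusted p = 0.0321).

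General macrophage genes were higher in the same livers. Cd68, a lysosomal glycoprotein, measured 7.98, 8.24, 8.05, 7.87 and 8.06 in the controls and 8.56, 8.35, 8.97, 8.76 and 8.49 after Cd and rose by 0.59 ± 0.11 (adjusted p = 0.0417). C1qb, a chain of complement C1q made by macrophages, rose by 0.42 ± 0.08 (adjusted p = 0.0458), and Cd liver 5 exceeded every control in both. Of the 13 Kupffer cell markers tested 2 were called higher and 0 lower, and without Cd liver 5 there were 3 higher (Cd68, C1qb and Csf1r) and 3 lower (Cd163, Clec4f and Cd5l). Over all probe sets 0.709% were called higher and 0.168% lower, and 3.16% and 0.599% without Cd liver 5. The median of the list, 0.31 both with and without Cd liver 5, covers changes of both signs. The mean signal over the list was 8.63 to 8.88 in the controls, 8.46 to 8.79 in Cd livers 1 to 4 and 9.01 in Cd liver 5, and the part of Kupffer cell number in these values was not tested.

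Several genes of monocytes and macrophages were among the 20 largest rises. Ms4a6a measured 6.61, 7.18, 7.08, 6.50 and 7.35 in the controls and 8.02, 8.01, 8.42, 8.77 and 7.53 after Cd, and rose by 1.21 ± 0.23 (adjusted p = 0.0403). A second, dimmer probe set of Ms4a6a gave 0.76 and was not called. Its relative Ms4a6bl1 rose by 0.99, Ly86, the partner of the Toll-like receptor relative CD180, by 0.98, the lectin receptor Clec4a3 by 0.97 and Plac8, a gene of myeloid cells, by 1.23, with adjusted p between 0.0318 and 0.0498. At these 5 genes Cd liver 5 stood 18.8% to 43.2% of the way from the control mean to the mean of the other Cd livers. Npl, which degrades sialic acid, rose by 0.99 and Tspan13, a tetraspanin, by 0.99.

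Further genes of white blood cells, picked after their values had been seen, were called as well. Aif1, the macrophage protein IBA1, measured 7.77 to 8.27 in the controls and 8.56 to 9.42 after Cd (0.93 ± 0.16, adjusted p = 0.0281). Ptprc, the common leukocyte antigen CD45, rose by 0.81 (adjusted p = 0.0425, and 0.056 at a second probe set, which was not called), the lipopolysaccharide receptor Tlr4 by 0.87 (adjusted p = 0.0417) and the lysosomal protease Lgmn by 0.62 (adjusted p = 0.0114). Without Cd liver 5, calls were also made for the inflammasome genes Casp1 (0.91 ± 0.12) and Pycard (1.03 ± 0.17) and for both chains of the phagocyte oxidase, Cybb (0.91 ± 0.15) and Cyba (0.87 ± 0.13). The same held for the receptors C5ar1 (1.25) and Fcgr3a (1.43) and the leukocyte integrin Itgal (1.45). Their adjusted p without Cd liver 5 lay between 0.00199 and 0.0112.

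The list of recruited macrophage and lysosomal genes had 0 calls of 20 with all livers and 7 calls, all higher, without Cd liver 5. Over all probe sets 0.709% were called higher, and 3.16% without that liver. Its median was 0.41 with and 0.49 without that liver. Gpnmb, a glycoprotein of lipid-laden macrophages, measured 8.75, 8.52, 10.74 and 9.36 in Cd livers 1 to 4, 7.01 in Cd liver 5 and 6.09 to 7.67 in the controls (2.22 ± 0.44 without Cd liver 5, adjusted p = 0.0231). Lgals3, the lectin galectin-3, gave 1.64 ± 0.20 (adjusted p = 0.00236), the adaptor Tyrobp 1.00 ± 0.12 and lysozyme, Lyz2, 1.22 ± 0.25. The mean signal over the list was 7.43 to 7.70 in the controls, 7.72 to 8.44 in Cd livers 1 to 4 and 7.55 in Cd liver 5. Most of the macrophage genes called with all livers were also called against the 15 pooled controls, such as Ms4a6a (1.18, adjusted p = 0.000287), Ly86 (0.89, adjusted p = 0.00281) and Aif1 (0.78, adjusted p = 0.00867), but not Cd68 (adjusted p = 0.0869) or C1qb (adjusted p = 0.367).

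Mx1, Isg15 and Psmb9 rose among the interferon genes. Mx1, an antiviral GTPase, measured 5.84, 6.35, 6.12, 5.67 and 6.48 in the controls and 7.71, 7.24, 7.87, 8.04 and 6.84 after Cd, with no overlap, and rose by 1.45 ± 0.23 (2.73-fold, adjusted p = 0.02). Isg15, a ubiquitin-like modifier, rose by 0.71 ± 0.13 (7.65 to 8.26 against 8.42 to 9.03, adjusted p = 0.0347), and Psmb9, a subunit of the immunoproteasome, by 0.64 ± 0.11 (adjusted p = 0.0301). Of 31 interferon response genes tested 28 had a mean difference above 0, in 8 all Cd livers lay above all controls (2.49% of all probe sets did), 3 were called higher and 0 lower, and the median was 0.39. The count was 13, all higher, without Cd liver 5, with a median of 0.44. Among the 10 added were the guanylate-binding GTPase Gbp2 (1.68 ± 0.23), Ifit3, which binds viral RNA (0.85 ± 0.19), and Lgals3bp (0.80 ± 0.17). Over all probe sets 0.709% were called higher, and 3.16% without Cd liver 5. The brightest probe set of Mx2 was not called (0.40, adjusted p = 0.6), and a second one differed by 2.02 (adjusted p = 0.0508), and by 1.97 without Cd liver 5 (adjusted p = 0.0442).

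MHC class II genes, which present antigen on macrophages, dendritic cells and B cells, had the highest median of the lists with at least 5 genes tested, 0.85 over 7 genes, all above 0. RT1-Ba measured 8.37, 7.73, 7.49, 7.74 and 8.52 in the controls and 8.70, 9.08, 9.39, 9.67 and 9.01 after Cd, and was the single call (1.20 ± 0.22, adjusted p = 0.0371). Its other probe sets disagreed, with differences of 0.12, 0.01 and -1.75 that were not called, and the mean over the probe sets of RT1-Ba reversed the sign to -0.10. Leaving out Cd liver 5 gave 6 calls of 7, all higher, among them RT1-Da (1.21 ± 0.21, adjusted p = 0.0112), RT1-DMa (0.98 ± 0.17), RT1-DMb (0.97 ± 0.20) and the invariant chain Cd74. Over all probe sets 0.709% were called higher with all livers and 3.16% without that liver. RT1-Bb was not called in either fit (2.16, adjusted p = 0.107), with controls spread over 4.08 to 7.06.

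Heph and Hopx were among the highest rises outside the groups above. Heph, a copper oxidase of iron export, measured 5.23, 4.72, 5.04, 5.15 and 4.86 in the controls and 6.81, 6.89, 7.19, 6.79 and 5.37 after Cd. All Cd livers lay above the controls, Cd liver 5 by the least, and the rise was 1.61 ± 0.28 (3.06-fold, adjusted p = 0.0294). Against the 15 pooled Cd controls the difference was 1.63 (adjusted p = 0.000274). Hopx, an atypical homeodomain cofactor, measured 4.58 to 4.94 in the controls and 6.18, 5.90, 7.17, 6.93 and 5.56 after Cd and rose by 1.57 ± 0.26 (adjusted p = 0.0279), and the junction protein Mpzl2 rose by 0.99 ± 0.20 (adjusted p = 0.0457). Of 17 genes of iron and heme handling Heph alone was called with all livers, and without Cd liver 5 Hpx, Tfr2, a sensor of iron-loaded transferrin (0.28), and Blvra, which reduces biliverdin (0.66), were added. The shares of all probe sets called were 0.876% and 3.76%.

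Of 30 genes of stellate cells and extracellular matrix, 27 had differences above 0 and 0 were called, with a median of 0.45. Leaving out Cd liver 5 gave 4 calls, all higher: the proteoglycan decorin, Dcn (1.73 ± 0.33, adjusted p = 0.0201), and the collagens Col3a1 (0.75 ± 0.18), Col4a1 (0.68 ± 0.11) and Col14a1 (0.37 ± 0.08). Second probe sets of Col4a1 and Col14a1 gave 0.48 and 0.05 and were not called. Lum, the related proteoglycan lumican, varied widely, from 4.43 to 6.55 in the controls and 5.94 to 9.73 after Cd, and was called in neither fit (1.96 ± 0.62, adjusted p = 0.158). S100a4, a marker of motile fibroblasts and macrophages, measured 6.04 to 6.76 in the controls, 8.33, 7.02, 9.44 and 8.08 in Cd livers 1 to 4 and 6.67 in Cd liver 5 (1.94 ± 0.38 without it, adjusted p = 0.0215). Spink1, Lcn2, Lgals3, Capg and Emp3 were the 5 calls without Cd liver 5 among 23 cytoskeletal and injury-associated genes, of which 0 were called with it (median 0.38). For this list and the matrix list, the shares of all probe sets called were 0.876% with all livers and 3.76% without Cd liver 5. The mean signal over the matrix list was 7.73 to 8.05 in the controls, 8.06 to 9.14 in Cd livers 1 to 4 and 7.90 in Cd liver 5, and the part of stellate cell number was not tested.

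**Figure D4:**
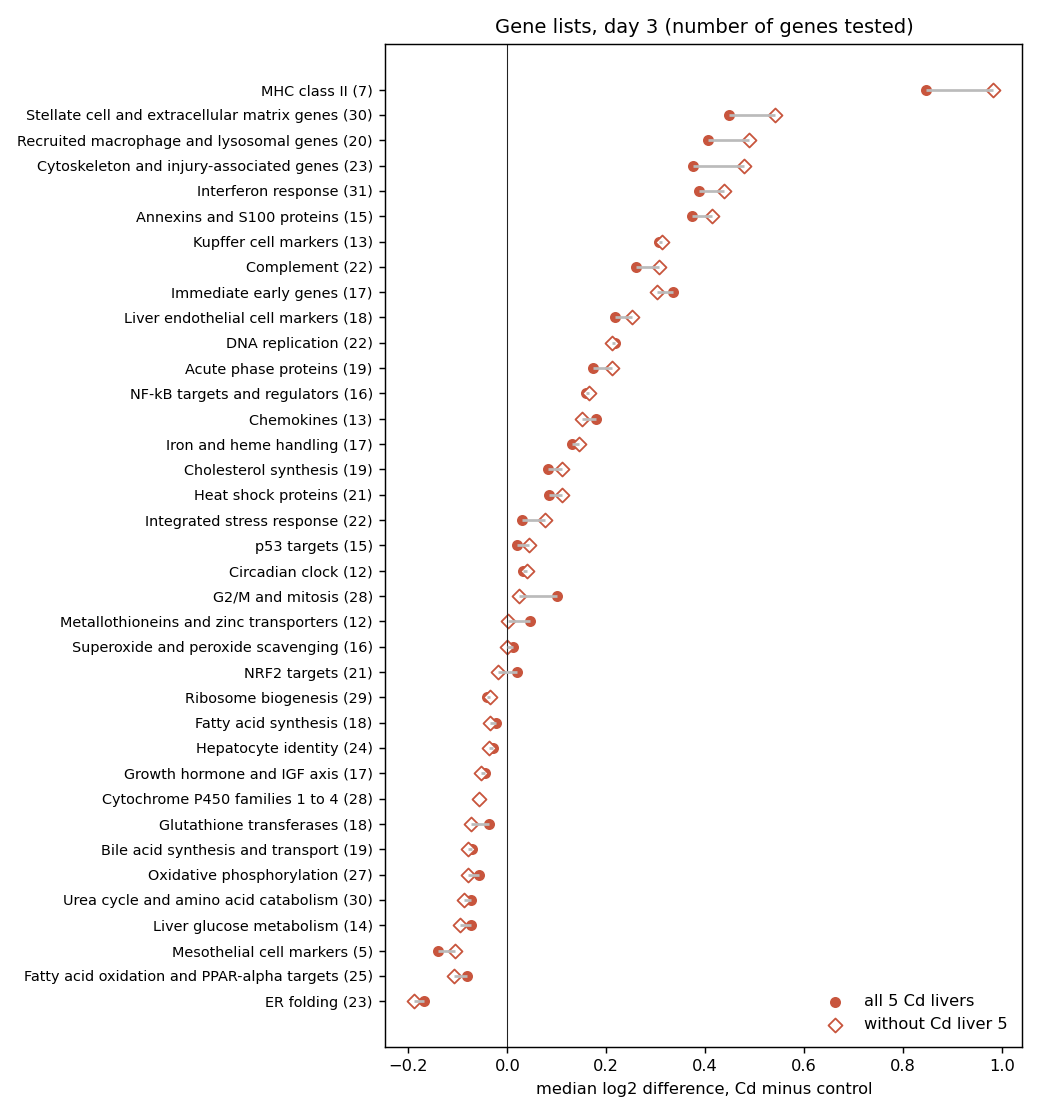
Median log2 difference, Cd minus same-day control, of each gene list with at least 5 genes tested (number in parentheses), with all 5 Cd livers (filled) and without Cd liver 5 (open). The MHC class II list lies at 0.85 and 0.98, and the lists of matrix, recruited macrophage, injury-associated and interferon genes follow, while lists of hepatocyte metabolism lie close to 0.

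The replicative helicase subunits Mcm2, Mcm3 and Mcm6 rose after Cd. Mcm6, a subunit of the replicative helicase, measured 5.88, 5.79, 5.21, 5.98 and 5.67 in the controls and 6.83, 6.56, 7.00, 6.78 and 6.66 after Cd, and rose by 1.06 ± 0.14 (adjusted p = 0.00534). The subunits Mcm2 and Mcm3 rose by 0.51 ± 0.09 and 0.58 ± 0.11, so 3 of 22 DNA replication genes were called, all higher (0.709% of all probe sets were), with a median of 0.22. The count was 5 without Cd liver 5, with Mcm4 (0.93 ± 0.13) and Mcm5 added. Mcm6 was not called against the 15 pooled controls (0.59, adjusted p = 0.269), whereas Mcm2 and Mcm3 were. Of 28 genes of G2/M and mitosis 0 were called with or without Cd liver 5 (0.876% and 3.76% of all probe sets were), and the median was 0.10. Cdk1, the mitotic kinase, differed by 0.16 (adjusted p = 0.825) and the cyclin Ccnb2 by -0.05 (adjusted p = 0.966). Among 17 immediate early genes Myc and Dusp6 were the calls with all livers, with a list median of 0.34.

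The counts for metabolic genes of hepatocytes stand beside 0.876% of all probe sets called, and 3.76% without Cd liver 5. Of 25 genes of fatty acid oxidation and PPAR-alpha targets, Pdk4, a brake on pyruvate oxidation, was called (0.64 ± 0.11, 9.02 to 9.59 against 9.74 to 10.09, adjusted p = 0.0281), and it was not called against the pooled controls (0.33, adjusted p = 0.44). A second probe set of Pdk4 gave 0.37 and was not called. With all livers there was no call among 28 cytochrome P450 genes, 18 glutathione transferases, 19 bile acid genes, 19 cholesterol synthesis genes, 18 fatty acid synthesis genes, 14 glucose metabolism genes, 30 genes of urea and amino acid metabolism and 27 of oxidative phosphorylation. Differences were below 0 for 14 of 14 glucose metabolism genes, 26 of 27 of oxidative phosphorylation and 25 of 30 of urea and amino acid metabolism, and above 0 for 14 of 19 of cholesterol synthesis. The medians of the lists just named without a call lay between -0.07 and 0.08, against 0.006 over all genes tested. Fatty acid oxidation and PPAR-alpha targets had a median of -0.08, with 17 of 25 differences below 0. The medians of the 10 arrays themselves ranged over 5.38 to 5.43, and the part of such small array-wide shifts in these signs was not tested. Leaving out Cd liver 5, 4 of the lists without a call gained 1 call each. Nr0b2, the bile acid-induced repressor SHP, differed by -1.29 ± 0.29 (adjusted p = 0.0347). The cytochrome Cyp3a23-3a1 differed by -0.80 ± 0.18 (adjusted p = 0.0407), the aminotransferase Gpt by -0.90 ± 0.20 (adjusted p = 0.0336) and the desaturase Scd2 by 0.98 ± 0.15 (adjusted p = 0.00736). Heat shock proteins, p53 targets, integrated stress response genes, circadian clock genes and ribosome biogenesis genes had 0 calls with all livers, and so did 16 NF-kB targets, of which Tnfaip3 and Cebpd were called without Cd liver 5. Of 24 hepatocyte identity genes Foxa2 alone was called.

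Few markers of other cell types that whole liver could hold were bright enough to be tested. Of 17 pancreatic acinar markers 1 was tested, as were 4 of 16 cholangiocyte, 5 of 14 mesothelial, 3 of 18 T and NK cell and 2 of 12 B and plasma cell markers, and 0 of these were called with or without Cd liver 5. The mean signal over the T and NK cell list was 4.47 to 4.68 in the controls, 4.56 to 4.80 in Cd livers 1 to 4 and 4.67 in Cd liver 5. Liver endothelial markers had 0 calls of 18 with all livers, 1 (Plvap) without Cd liver 5, and a median of 0.22. Red cell genes were lower without being called: Hbb, a hemoglobin chain, measured 12.35 to 13.78 in the controls and 11.48 to 12.64 after Cd (-0.80, adjusted p = 0.205), and Alas2, the heme enzyme of red cell precursors, differed by -1.01 (adjusted p = 0.205). The part of blood content in the results was not tested.

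On day 1 after Cd, 2621 probe sets were called against the controls of that day (16.9%), and the change of the effect from day 1 to day 3 was called at 1757 (11.3%), higher at 943 (6.08%) and lower at 814 (5.24%). The count without Cd liver 5 was 1602 (10.3%), with 867 higher (5.59%) and 735 lower (4.74%). The Kupffer cell list had a median of -2.77 on day 1 with 12 of 13 genes lower (8.03% of all probe sets were), against 0.31 on day 3. Cd5l differed from controls by -5.17 on day 1 and -1.04 on day 3 (difference of effects 4.13 ± 1.16, limma, adjusted p = 0.0259), and Cd163 by -3.79 and -1.54 (difference 2.24 ± 0.69, adjusted p = 0.0426). C1qb went from -2.77 to 0.42 (adjusted p of the difference = 0.000386), Cd68 from -1.41 to 0.59 (adjusted p = 0.00041) and Aif1 from -1.49 to 0.93 (adjusted p = 6.69e-05), so these 3 were below the controls on day 1 and above them on day 3. Heph likewise moved from -0.55 to 1.61 (adjusted p of the difference = 0.00038), and Cish from -1.12 to 2.18 (adjusted p = 5.61e-06). Each effect was taken from the controls of its own day, and at some genes these controls differed between the days. Control means on days 1 and 3 were 7.50 and 5.10 for Cish, 11.33 and 10.08 for Hhex and 6.27 and 7.54 for Ddit4. For Heph they were 5.02 and 5.00. The part of the controls in these changes was not tested.

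Isg15, Ifit3, Cxcl1, Lbp, Stat3 and Mt2A had larger effects on day 1 than on day 3. The 4 exposed livers of day 1 lack a replicate that the paper excluded, whereas the day 3 effects paired with day 1 below include Cd liver 5. Without Cd liver 5 the day 3 effects were 0.75 for Isg15, 0.85 for Ifit3 and 1.58 for Cxcl1. For Lbp, Stat3 and Mt2A they were 0.96, 0.41 and 2.17. Isg15 had a difference of 3.62 on day 1 and 0.71 on day 3 (difference of effects -2.91 ± 0.22, adjusted p = 7.4e-07), and Ifit3 of 2.58 and 0.77 (adjusted p = 0.000874). The probe sets of Mx2 disagreed, with 2.97 and 0.40 at the brightest (adjusted p = 0.000136) but 2.31 and 2.02 at the other, a change that was not called (adjusted p = 0.913). Mx1 had 1.69 and 1.45, a change that was not called (adjusted p = 0.731). Cxcl1 (4.41 and 1.16, adjusted p = 0.00154), Lbp (2.58 and 0.81, adjusted p = 0.00462), Stat3 (1.44 and 0.33, adjusted p = 0.000503) and Mt2A (4.43 and 1.56, adjusted p = 0.04) followed the same course. For S100a9 (3.64 and 2.17, adjusted p = 0.149), Orm1 (1.25 and 0.98, adjusted p = 0.586) and Psmb9 (0.97 and 0.64, adjusted p = 0.229) the change was not called. For Lcn2 the effects were 4.97 and 5.61 and the change was not called (adjusted p = 0.891). Mitotic genes had a median of -2.17 on day 1, with 28 of 28 lower, and 0.10 on day 3, and Cdk1 went from -2.84 to 0.16 (adjusted p of the difference = 4.73e-05).

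No probe set was called on day 7 against the controls of that day by limma (1037 at an unadjusted p of 0.05 or less, 6.68%), nor for the change of the effect from day 3 to day 7 by limma (796 unadjusted, 5.13%). The 2 days therefore give values side by side only. Heph stood at 1.61 ± 0.28 on day 3 and 1.31 ± 0.34 on day 7, Mt2A at 1.56 ± 0.66 and 1.89 ± 0.72, Cish at 2.18 ± 0.19 and 1.48 ± 0.71, and Lcn2 at 5.61 ± 1.42 and 2.03 ± 1.22. A missed threshold does not show that the days were alike.

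The difference between the Cd and Cr effects on day 3 passed the limma threshold at 0 probe sets with all livers (1653 at the unadjusted threshold, 10.7%), and without Cd liver 5 at 165 (1.06%), with Cd higher at 136 (0.876%) and lower at 29 (0.187%). Cr itself gave 8 calls on day 3 (0.0515%). All Cr livers were kept, so leaving out only Cd liver 5, after its values were seen, favours larger differences between the metals. The adjusted p values without it are descriptive here too. The difference of effects, Cd minus Cr without Cd liver 5, was 7.09 ± 0.76 for Lcn2 (adjusted p = 0.000151), -2.24 ± 0.22 for Cd163 (adjusted p = 9.89e-05), -1.49 ± 0.24 for Clec4f (adjusted p = 0.00396) and 1.88 ± 0.25 for Ms4a6a (adjusted p = 0.000941). Plac8 (1.68), Mx1 (1.88), Heph (1.66), S100a9 (2.13), Gbp2 (1.60), Lgals3 (1.50) and Cxcl1 (2.47) were called too. With all livers none of these genes was called, with 1.35 for Heph (limma, adjusted p = 0.136) and 1.84 for S100a9 (adjusted p = 0.136). For Mt2A (1.84 ± 0.57, adjusted p = 0.142), Cish (1.64 ± 0.69, adjusted p = 0.337) and Hhex (0.45 ± 0.25, adjusted p = 0.494) the difference was not called.

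**Figure D5:**
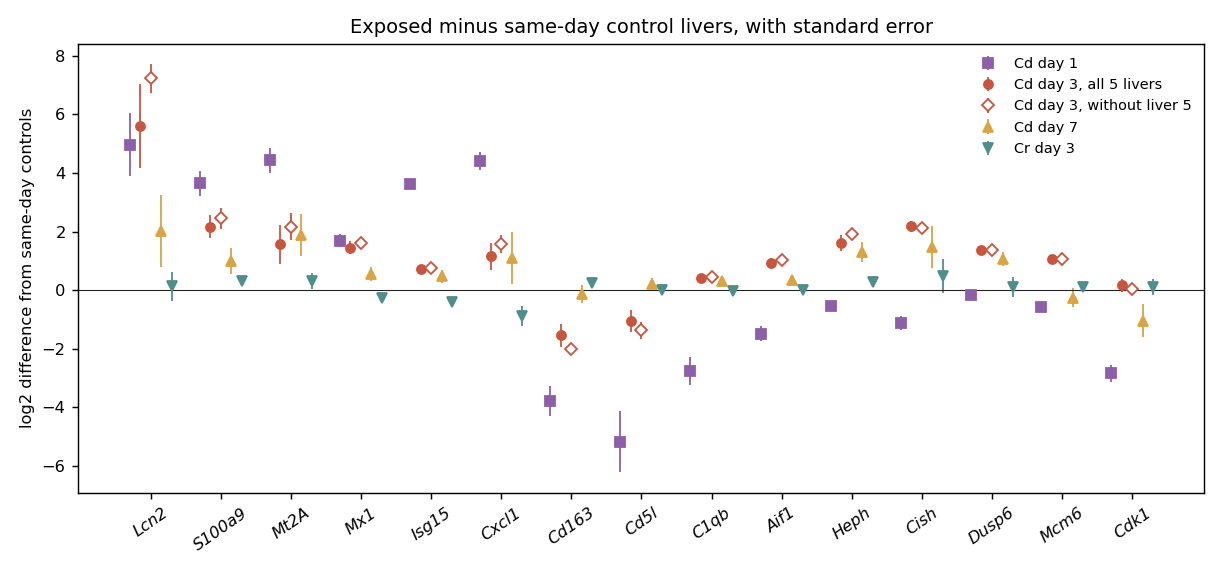
Log2 difference of exposed from same-day control livers, with its standard error, for 15 genes after Cd on day 1 (purple squares), day 3 with all livers (red circles) and without Cd liver 5 (open diamonds), day 7 (yellow triangles) and after Cr on day 3 (green triangles). Cd163 and Cd5l lie lowest on day 1, C1qb, Aif1 and Heph cross from below 0 on day 1 to above 0 on day 3, and the Cr values lie near 0 for most of the genes.

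Calls differed in how far they depended on single livers. Of the 136 called probe sets 30 stayed called whichever of the 10 livers was left out, among them Cish, Dusp6, Rgs3, Hhex, Foxa2, Myc, Net1, Mcm6, Lgmn, Tbx3, Ddit4, Rasd1, Efna1 and Lrig3. The other calls named above with all livers were lost on leaving out at least 1 liver other than Cd liver 5, and between 36 and 65 of the 136 remained when one of those 9 livers was left out. Apart from Dusp6 and Lgmn, the 14 genes just named were not called against the 15 pooled controls.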

How the data were processed

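Affymetrix Rat Genome arrays measured liver RNA, and the authors deposited log2 signals per probe set after RMA normalization. The submitters' processing notes name RMA and Partek, with no versions. Of 31099 probe sets 57 control probe sets were left out. Of the 31042 kept, the platform annotation gave 20826 probe sets 1 gene symbol, 436 several and 9780 none, so no gene was named from a probe set with several symbols except the metallothionein one described as such. A gene was read on its brightest probe set with 1 symbol. The brighter part of the probe sets by mean over the 10 arrays (15521, mean log2 signal of at least 5.404) was tested. A probe set with dim controls could pass this filter through high Cd livers alone, and Cish, Heph and Hopx were among these.

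Groups came from the labels. Cd and same-day control livers were compared with lmFit and eBayes of limma 3.58.1 (R 4.3.3, statmod 1.5.0), with Benjamini-Hochberg adjustment over the 15521 probe sets and a call at an adjusted p of 0.05 or less. The residual degrees of freedom were 8. Effects were compared with those of Cd day 1, Cd day 7 and Cr day 3 by contrasts in 1 fit of each pair; these groups share no controls. No 2 arrays held identical values, and the 10 arrays correlated at 0.987 to 0.995. The fit was tested on simulated data. Promoters and motif matches were read from RefSeq GRCr8 with Python 3.11.15, pandas 2.3.3 and numpy 2.4.6, and figures drawn with matplotlib 3.10.9.

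Genes named were the 20 largest rises and 10 largest falls among called genes with all 5 Cd livers on 1 side of the control mean, up to 4 called members of each of 43 gene lists (or the 2 brightest where none was called), every metallothionein, Lcn2, Spink1, Hmox1 and Lum. Genes called only without Cd liver 5, and those described as such, were chosen after their values were seen. The group, the lists and the tests were chosen with earlier results of these data known.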

Additional observations from a re-analysis of the deposited data

Results flagged for a closer look

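The sample farthest from the others in its group was judged by its gap to the nearest neighbour over the whole range of the group (Dixon's ratio, critical value 0.71 for 5 samples), and chance passes this for about 1 in 20 groups. Of 202 groups (control and Cd livers of the genes named) 12 passed. Many genes, Stat3 and Blvra among them, were named because they were called without Cd liver 5. That choice favours genes where this liver stands apart, so the rate of 1 in 20 is no reference for its count. Cd liver 5 was the sample set apart in 5 of them, as the lowest Cd liver in Stat3 (0.957), Lcn2 (0.919), Blvra (0.807), Heph (0.778) and Orm1 (0.727). The others were Itgal in control 4 (0.886), Blvra in control 1 (0.808), Hhex in control 4 (0.795), Dusp6 in Cd liver 2 (0.794), Slc39a1 in Cd liver 1 (0.776), Mt4 in control 2 (0.742) and Onecut1 in Cd liver 1 (0.731).

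The Cd effect of 47 genes named differed between day 1 and day 3 by limma's test of that difference (adjusted p between 7.4e-07 and 0.0433). Differences, day 3 minus day 1, are on the log2 scale. Kupffer cell and mitotic genes, which were far below the controls on day 1, gave 4.13 for Cd5l, 3.19 for C1qb, 3.00 for Cdk1, 2.85 for Ccnb2, 2.56 for Clec4f, 2.24 for Cd163 and 2.00 for Cd68. Other genes of white blood cells followed, with Aif1 at 2.41, Fcgr3a at 1.78, Ly86 at 1.57, Ms4a6bl1 at 1.56, Ms4a6a at 1.35, Cybb at 1.30, Clec4a3 at 1.29, Tlr4 at 1.18, RT1-DMb at 0.89, Npl at 0.86 and Lgmn at 0.57. Signalling inhibitors and transcription factors gave 3.29 for Cish, 2.78 for Onecut1, 2.04 for Rgs3, 1.66 for Hhex, 1.54 for Dusp6, 1.53 for Myc and 1.45 for Foxa2. Heph gave 2.16, Mcm6 1.62, Mpzl2 1.61, Pdk4 1.03 and Blvra 0.97.

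The effect was lower on day 3 than on day 1, with -3.25 for Cxcl1, -2.91 for Isg15, -2.87 for Mt2A, -2.57 for Mx2 (at its brightest probe set, and -0.29 without a call at the other), -1.81 for Ifit3, -1.77 for Lbp, -1.11 for Stat3, -0.59 for Tfr2 and -0.34 for Slc39a1. Genes that fell on day 3 gave -1.96 for Tbx3, -1.29 for Ddit4, -1.18 for Herpud1, -0.998 for Efna1, -0.73 for Rasd1, -0.61 for Lrig3, -0.60 for Pard6b and -0.45 for Dgkd. Controls of days 1 and 3 differed at some of the genes in this section, such as Ddit4 (means of 6.27 and 7.54) and Mcm6 (6.76 and 5.71). At others they were closer, such as Heph (5.02 and 5.00). The part of the controls in these differences was not tested. Without Cd liver 5 the differences of Cd163 (1.79, adjusted p = 0.0553) and Slc39a1 (-0.35, adjusted p = 0.0514) were not called, and the others remained called.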

How the results depend on the processing

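The count of 136 calls at the adjusted p stayed within 1.5 times under no filter (97), only the brightest probe sets, a stricter filter (107), ranking by the lowest signal within a group (180), quantile normalization (104), median centring (114) and a trended, robust variance (162). It was 24 with no moderation of the variance, 342 with array quality weights, 214 with all 29 Cd arrays in the fit, 396 against the 15 pooled Cd controls and 684 against the pooled controls without Cd liver 5, a combination chosen after seeing the data. Leaving out 1 liver gave 37 to 583. The 39 calls at 1.8-fold became 11 with no moderation, 80 with weights, 65 with 29 arrays and 119 with pooled controls without Cd liver 5, and 16 to 142 on leaving out 1 liver. The 139 probe sets at the unadjusted p and 1.8-fold became 71 in that brightest part and 89 against pooled controls. The causes were not tested, except that a filter changes how many probe sets are tested.

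The Cd minus Cr difference had 0 calls, 9 with all 59 arrays in the fit, 3 with the replicate block and 0 to 165 on leaving out 1 liver (1 without control liver 3, 2 without control liver 5, 6 without Cd liver 2 and 165 without Cd liver 5). With the replicate block 154 probe sets were called on day 3, 85 of the 136 among them. Of the genes named, 16 lost the call (Orm1, Epha2, Ppard, Herpud1, Ms4a6a, Ms4a6bl1, Plac8, Cd68, C1qb, Aif1, Tlr4, Mx1, Isg15, Psmb9, RT1-Ba and Mpzl2) and 2 gained it (Spink1 and Lyz2). No label says what the numbers share, so they were not taken to pair the samples. Same-numbered livers deviated together at r = 0.270, 0.162, 0.096, 0.109 and 0.150, with a mean of 0.158 against -0.039 for livers of other numbers. Of the 5 Cd livers, 3 correlated best with the control of their own number. What the numbers share was not tested.

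Of the genes named, RT1-Ba alone reversed sign under the alternatives run, to -0.10 as the mean of its probe sets. Of the 44 called, 14 stayed called whichever liver was left out and 23 were also called against the pooled controls. Probe sets in the dim part of the array, among them most neutrophil and lymphocyte markers, were not tested.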
